A study of Mus musculus with 46 samples.

Results

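The state of a carcinoma cell between epithelial and mesenchymal was followed in 10 marker genes, chosen by symbol for what they are known to mark, of 10453 gene symbols in the count tables. The epithelial markers were Cdh1 (E-cadherin), Epcam and the keratin genes Krt8, Krt18 and Krt19, and the mesenchymal markers were Cdh2 (N-cadherin) and Vim (vimentin). Snai1, Zeb1 and Twist1 encode transcription factors that drive the change from the first state to the second. Of the 10 genes, 9 could be analysed in cultures with DMSO and 8 in cultures with torin 1. Cdh1 was not analysed here, and Epcam was analysed with DMSO only.

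Simple epithelia hold their shape with filaments in which keratin 8, a type II keratin, pairs with a type I keratin, which is keratin 18 in most glands and also keratin 19 in ducts such as those of the pancreas. Vimentin forms the filaments of mesenchymal cells, and carcinoma cells that lose E-cadherin and EpCAM often gain vimentin and N-cadherin. Snail (Snai1) and Zeb1 are zinc finger repressors that bind E-boxes in the promoters of epithelial genes, and Twist1 is a basic helix-loop-helix factor that acts beside them.

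EPP2 is a murine pancreatic cancer cell line. All cultures were of EPP2 cells that carry a doxycycline-inducible Cas9, from a line made as a single cell-derived clone. Ctu1 encodes a subunit of the enzyme that thiolates the wobble uridine of tRNAs that read AAA, CAA and GAA codons, together called VAA. In Ctu1KO cultures its knockout was induced (Ctu1 iKO) with 300 ng/ml doxycycline 4 days before the experiment, and controls were of genotype WT by their label. Guides against non-coding regions and cells without doxycycline both served the study as controls, and the sources used here do not say which of these the libraries came from. Cultures then received torin 1, an inhibitor of the mTOR kinase, at 300 nM or its solvent DMSO for 2 h. Ribosome footprints, the mRNA fragments that ribosomes protect from nuclease, and poly(A) RNA of the same cultures were sequenced from 6 control cultures with DMSO, 6 control cultures with torin 1, 5 Ctu1 iKO cultures with DMSO and 6 Ctu1 iKO cultures with torin 1. Levels are given as counts scaled to a library total of 1000000 (CPM). Replicate numbers were taken as separate cultures. The study's text does not give 1 number of independent replicates throughout, so some libraries may be technical repeats, and p-values then measure the spread between these libraries only.

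Library totals ranged from 4602092 to 52907878 footprints and from 129881946 to 325494304 RNA counts. Ctu1 itself was measured at 1.58 to 3.43 footprint CPM in control and 1.298 to 2.27 in Ctu1 iKO cultures with DMSO, a log2 change of -0.54 ± 0.29 (SE, edgeR adjusted p = 0.353), and its RNA did not differ detectably in replicates 1 to 3 (0.022 ± 0.11 SE, edgeR adjusted p = 0.926). Neither passed the test and the groups overlapped, so these counts do not show that Ctu1 was lost. Ctu1 iKO and Ctu1 loss therefore name groups and comparisons by their labels, and counts over a whole gene do not tell whether its sequence was edited. The study itself showed editing of the Ctu1 locus by PCR in Ctu1 iKO EPP2 cells. It also reported more ribosomes at AAA codons in these cells, and a smaller rise at CAA and GAA codons. Ctu1 RNA was 4.56, 4.35 and 4.95 CPM in replicates 1 to 3 of Ctu1 iKO with DMSO and 3.27 and 3.09 in replicates 4 and 5, which were below all 6 control libraries (4.22 to 5.25). These RNA replicates 4 and 5 labelled Ctu1 iKO with DMSO and replicates 5 and 6 labelled Ctu1 iKO with torin 1 stood apart from the rest of their groups. Vim shows it: the first 2 had 5939.7 and 5639.7 RNA CPM beside 2974, 2991 and 3316 in replicates 1 to 3, and the other 2 had 2684 and 2620.0 beside 4754, 4745 and 5482. The first pair lay within the Vim range of replicates 1 to 4 of Ctu1 iKO with torin 1, and of the second pair, replicate 6 lay within the range of control with DMSO and replicate 5 between that range and replicates 1 to 3 of Ctu1 iKO with DMSO. Whether labels were exchanged between these libraries was not tested, and values over all RNA replicates carry this doubt. RNA values below are therefore of replicates 1 to 3 of every group unless stated, with all replicates as an alternative. Cultures were of a clonal cell line, so markers of cell types of the pancreas and its tumors are given as levels in that line. The genes analysed here include none of 6 acinar, 6 leukocyte and 4 endothelial markers. They include 4 of 7 duct markers (Krt19, Sox9, Cftr and, with DMSO, Epcam) and 6 of 7 fibroblast markers (Pdgfra, Pdgfrb, Dcn, Lum, Col1a1 and Col3a1). The 5 fibroblast markers measured in all groups summed to 739.6 to 1346 footprint CPM in control with DMSO, 709.7 to 1509 in control with torin 1, 649 to 1539 in Ctu1 iKO with DMSO and 587 to 2313 in Ctu1 iKO with torin 1. The 3 duct markers measured in all groups summed to 50.01 to 76.3, 89.1 to 123, 63.5 to 112 and 122 to 209 CPM in the same order. The sum does not describe each of them. Mean Krt19 was 12.3, 13.4, 12.9 and 11.8 CPM in that order, while Sox9, also on the mesenchymal list below, rose with torin 1 (0.83 in control, 1.01 in Ctu1 iKO, log2). The part of the fibroblast and duct markers in the results was not tested.

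The E-box to which Snail and Zeb1 bind has the letters CACCTG. On the opposite strand it reads CAGGTG. RefSeq promoters of build GRCm38 (250 bases before the annotated start) were searched on both strands for Epcam, Krt18, Snai1, Twist1 and Vim. The first 3 hold the hexamer, and Twist1 and Vim do not. Of all 32851 promoters in the table, 17.2% hold it. The windows below have 12 bases before and 12 after the hexamer, which is in capitals, read on the gene's strand.
Epcam, 187 bases before the start, chr17:87635780-87635809 (+ strand): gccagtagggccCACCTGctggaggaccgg
Epcam, 19 bases before the start, chr17:87635948-87635977 (+ strand): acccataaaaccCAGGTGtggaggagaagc
Krt18, 214 bases before the start, chr15:102027990-102028019 (+ strand): aggggctaacacCACCTGctatcctttgtg
Snai1, 126 bases before the start, chr2:167538057-167538086 (+ strand): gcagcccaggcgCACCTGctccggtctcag

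mTOR acts most on the translation of mRNAs that begin with a run of pyrimidines, so the bases at the annotated start are also shown for the filament genes on which the torin 1 results turn and for Snai1 and Twist1, whose footprints did not pass the test with torin 1. Each window has 12 bases before the RefSeq start and 18 from it, and capitals mark the unbroken run of C and T that covers or touches the first base.
Vim, chr2:13574299-13574328 (+ strand): cgttgtccagTCCTCTgccactcttgctcc
Krt18, chr15:102028204-102028233 (+ strand): acaggtcgaggaCTgccaccctccgcggcg
Krt8, chr15:102004325-102004354 (- strand): gCCTCTTCTTTTataaagggccttcgctgg
Snai1, chr2:167538183-167538212 (+ strand): ttgctgctgctaggggatcgtagtgtgcgg
Twist1, chr12:33957659-33957688 (+ strand): tctcagacaCCTCgcgggctcgccagcacc
The run is 6 bases long at Vim, 2 at Krt18, 4 at Twist1 and 11 at Krt8, where it ends before the first base, and Snai1 has none. Counted from the first base, the run starts at 0 at Krt18, -2 at Vim, -3 at Twist1 and -11 at Krt8. Bases with a minus sign lie outside the annotated mRNA, so at Krt8 no base of the run is in it. Of all promoters, 10.7% have a run of at least 6 bases and 51.03% one of at least 2. A run of at least 4 is found in 23.8% and one of at least 11 in 2.298%. These shares also count bases before the start. The GENCODE start lies 359 bases upstream of this one for Vim, 140 for Krt8 and 36 for Krt18, so which start EPP2 cells use is not known from these files.

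Vimentin was by far the most translated of the markers. In control cultures with DMSO, Vim had 2565 ± 225 footprint CPM per kb of coding sequence (SD, n = 6), which placed it at rank 70 of 10128 genes. Keratin 8 and its partner keratin 18 came next, with 106 ± 10.0 and 102 ± 8.64 footprint CPM per kb, above 86.5% and 86.04% of genes. Their ranges overlapped, from 92.1 to 116 and from 89.2 to 112. Below them stood Cdh2 with 43.2 ± 5.91, Snai1 with 38.5 ± 7.496 and Twist1 with 25.1 ± 7.57 footprint CPM per kb, and the ranges of these neighbours overlapped too. Krt19 with 10.1 ± 2.901 and Zeb1 with 8.09 ± 1.11 were lower than Twist1 in every library and overlapped each other. Epcam was lowest, with 2.401 ± 0.523, under every library's value of any other marker.

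RNA per kb of transcript gave the same ends of the order (replicates 1 to 3 of control with DMSO, n = 3). Vim had 1120.4 ± 67.9 RNA CPM per kb, and Krt18 with 86.8 ± 4.49 and Krt8 with 70.3 ± 5.93 followed. Snai1 had 22.6 ± 2.28, Cdh2 12.6 ± 1.28, Twist1 12.4 ± 0.9597, Krt19 8.23 ± 0.2998 and Zeb1 5.33 ± 0.159 RNA CPM per kb, and Epcam 0.537 ± 0.0506. The line had Vim, Krt8 and Krt18, filament genes of both states, at high levels, while Krt19 was below the median gene (40.1% of genes were lower in footprints). Epcam, which marks the epithelial state, was low, with 10.8% of genes below it in footprints and 5.19% in RNA. Every gene analysed had at least 100 footprints in some library, and Epcam reached this in control replicate 5 alone (143 counts, and at most 65 in the others). These are cultures in bulk, in which fewer cells of a kind and less RNA per cell cannot be told apart.

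**Figure D1:**
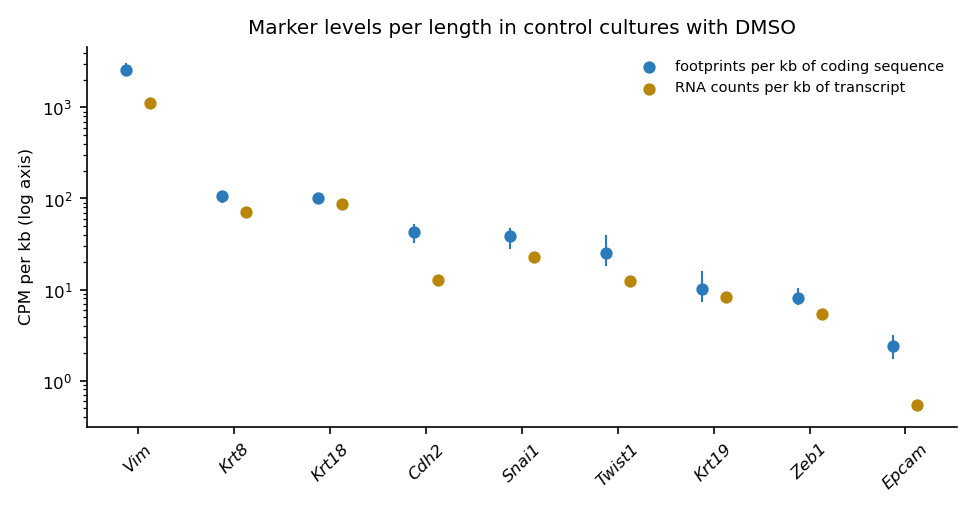
Level of each marker per length in control cultures with DMSO, on a log axis. Blue points are mean footprint CPM per kb of coding sequence (n = 6) and ochre points mean RNA CPM per kb of transcript (n = 3), and bars span the lowest to the highest library. Vim lies at 2565 footprint CPM per kb and Epcam at 2.40, and the 2 scales are not comparable with each other.

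Torin 1 lowered the footprints of vimentin in both genotypes. In control cultures, Vim footprints lay at 3300.1 to 4165 CPM (median 3455) with DMSO and 2295 to 3021 CPM (median 2762) with torin 1, and in Ctu1 iKO cultures they were 4342, 4731, 3664, 3362 and 3629 CPM with DMSO and 1862 to 2585 CPM (median 2155) with torin 1. Every torin 1 library was below every DMSO library of its genotype. The log2 change was -0.48 ± 0.10 (SE, edgeR adjusted p = 0.00506) in control and -0.93 ± 0.11 (SE, edgeR adjusted p = 9.03e-05) in Ctu1 iKO. Both calls held when any 1 library was left out. With replicates 1 to 3 only, where 138 of 9854 genes were called in control, the call in control was lost.

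Keratin 18 footprints fell in Ctu1 iKO cultures, where Krt18 had 151, 155, 105, 129.8 and 129 CPM with DMSO and 94.5 to 113 CPM (median 97.5) with torin 1. The 5 lower torin 1 libraries were all below every DMSO library, and replicate 2 of the torin 1 group, at 113 CPM, was above 1 of them. The log2 change was -0.52 ± 0.11 (SE, edgeR adjusted p = 0.00991). In control cultures Krt18 lay at 113 to 142 CPM (median 133) with DMSO and 106 to 129 CPM (median 119) with torin 1, a log2 change of -0.24 ± 0.082 (SE, edgeR adjusted p = 0.0968). Same-numbered libraries deviated together in this comparison, and with the replicate number as a block the value was -0.24 (edgeR adjusted p = 0.0163). Keratin 8, its partner, did not pass the test in either genotype (-0.12 ± 0.11 SE, edgeR adjusted p = 0.618 in control and -0.20 ± 0.10 SE, edgeR adjusted p = 0.234 in Ctu1 iKO), nor did Krt19 (0.034 ± 0.19 SE, edgeR adjusted p = 0.955 and -0.23 ± 0.26 SE, edgeR adjusted p = 0.685).

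Of the 8 markers tested in footprints, 1 was called lower with torin 1 in control cultures and 2 in Ctu1 iKO cultures, and none higher. In control 7.24% of all genes were called, 2.91% higher and 4.33% lower, and in Ctu1 iKO 8.0% of all genes were called, 3.48% higher and 4.52% lower. N-cadherin footprints were 0.068 ± 0.12 (SE, edgeR adjusted p = 0.811) and 0.34 ± 0.18 (SE, edgeR adjusted p = 0.308) on the log2 scale in the 2 genotypes. The 3 transcription factor genes gave log2 values from -0.27 to 0.11, and none of the 6 passed, with edgeR adjusted p from 0.4598 to 0.943.

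**Figure D2:**
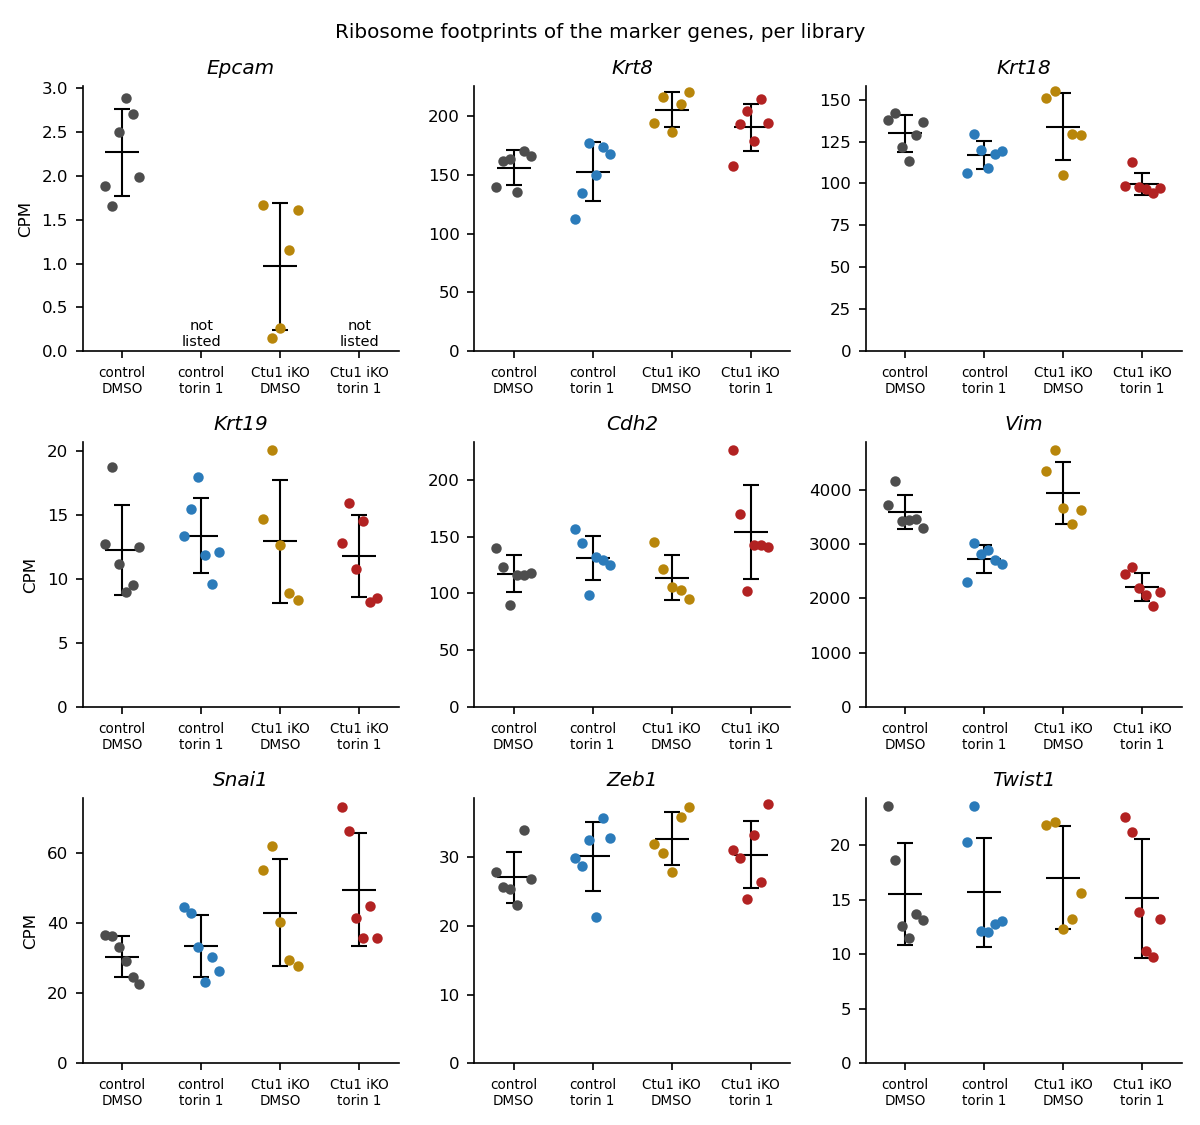
Footprint CPM of each listed marker by group, 1 point per library in replicate order, with the mean and SD as bars, and all axes starting at 0. Vim is lower in every torin 1 library than in any DMSO library of its genotype, and Krt8 is higher in every Ctu1 iKO library with DMSO than in any control library with DMSO.

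Vim and Krt18 RNA rose with torin 1 in both genotypes. Vim RNA was 2364, 2378 and 2629 CPM in the 3 control cultures with DMSO and 3022, 2998 and 3371 with torin 1, and 2974, 2991 and 3316 against 4754, 4745 and 5482 CPM in Ctu1 iKO cultures. Both torin 1 groups were above their DMSO group in every library. The log2 changes were 0.38 ± 0.087 (SE, edgeR adjusted p = 0.0306) and 0.75 ± 0.094 (SE, edgeR adjusted p = 0.00758). The first call was lost in 5 of 6 fits that left out 1 library, all but the one without control DMSO replicate 3, with a log2 change that stayed between 0.30 and 0.44. The second was lost without Ctu1 iKO DMSO replicate 2 (edgeR adjusted p = 0.0503).

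Krt18 RNA went from 131, 125 and 118 to 189, 178 and 173 CPM in control and from 143, 156 and 110.3 to 234, 248 and 207 CPM in Ctu1 iKO cultures. This rise was called in both, at 0.56 ± 0.062 (SE, edgeR adjusted p = 0.00267) and 0.81 ± 0.14 (SE, edgeR adjusted p = 0.0165). Without Ctu1 iKO DMSO replicate 1 or torin 1 replicate 2 the second was not called (edgeR adjusted p up to 0.0743). Krt8 RNA was 169, 193 and 171 CPM with DMSO and 232, 259.8 and 256 with torin 1 in Ctu1 iKO cultures, a change of 0.55 ± 0.093 (SE, edgeR adjusted p = 0.0157), and in control cultures its change was 0.25 ± 0.13 (SE, edgeR adjusted p = 0.261). The call in Ctu1 iKO was lost in 4 of 6 fits with 1 library left out (any DMSO replicate, or torin 1 replicate 2; edgeR adjusted p up to 0.0868).

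In RNA, 2 of the 8 markers were called higher with torin 1 in control cultures, where 13.1% of all genes were called, 5.69% higher and 7.4% lower. In Ctu1 iKO cultures 3 were called higher, where 8.25% of all genes were called, 3.73% higher and 4.52% lower. The edgeR test called no marker lower in either genotype, while DESeq2, all 4 groups in 1 fit and library totals each called Twist1 lower in Ctu1 iKO (DESeq2 -0.37, adjusted p = 0.0172). Same-numbered RNA libraries deviated together. With the replicate number as a block, 4206 of 9617 genes were called in control and 3378 of 9619 in Ctu1 iKO. Among them were 5 of the 8 markers in control and 6 in Ctu1 iKO. These were Vim, Krt18 and Krt8 in both, Cdh2 (0.23, edgeR adjusted p = 0.00615 in control, 0.33, edgeR adjusted p = 0.0133 in Ctu1 iKO) and Twist1, which was lower in both (-0.19, edgeR adjusted p = 0.0173 and -0.37, edgeR adjusted p = 0.00882). Krt19 passed in Ctu1 iKO (0.35, edgeR adjusted p = 0.01503), was 0.18 (edgeR adjusted p = 0.0572) in control, and this difference was not called in the interaction test. With all RNA replicates, those at odds with their groups included, no marker was called with torin 1 in Ctu1 iKO, and Vim then changed by 0.091 (edgeR adjusted p = 0.993).

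**Figure D3:**
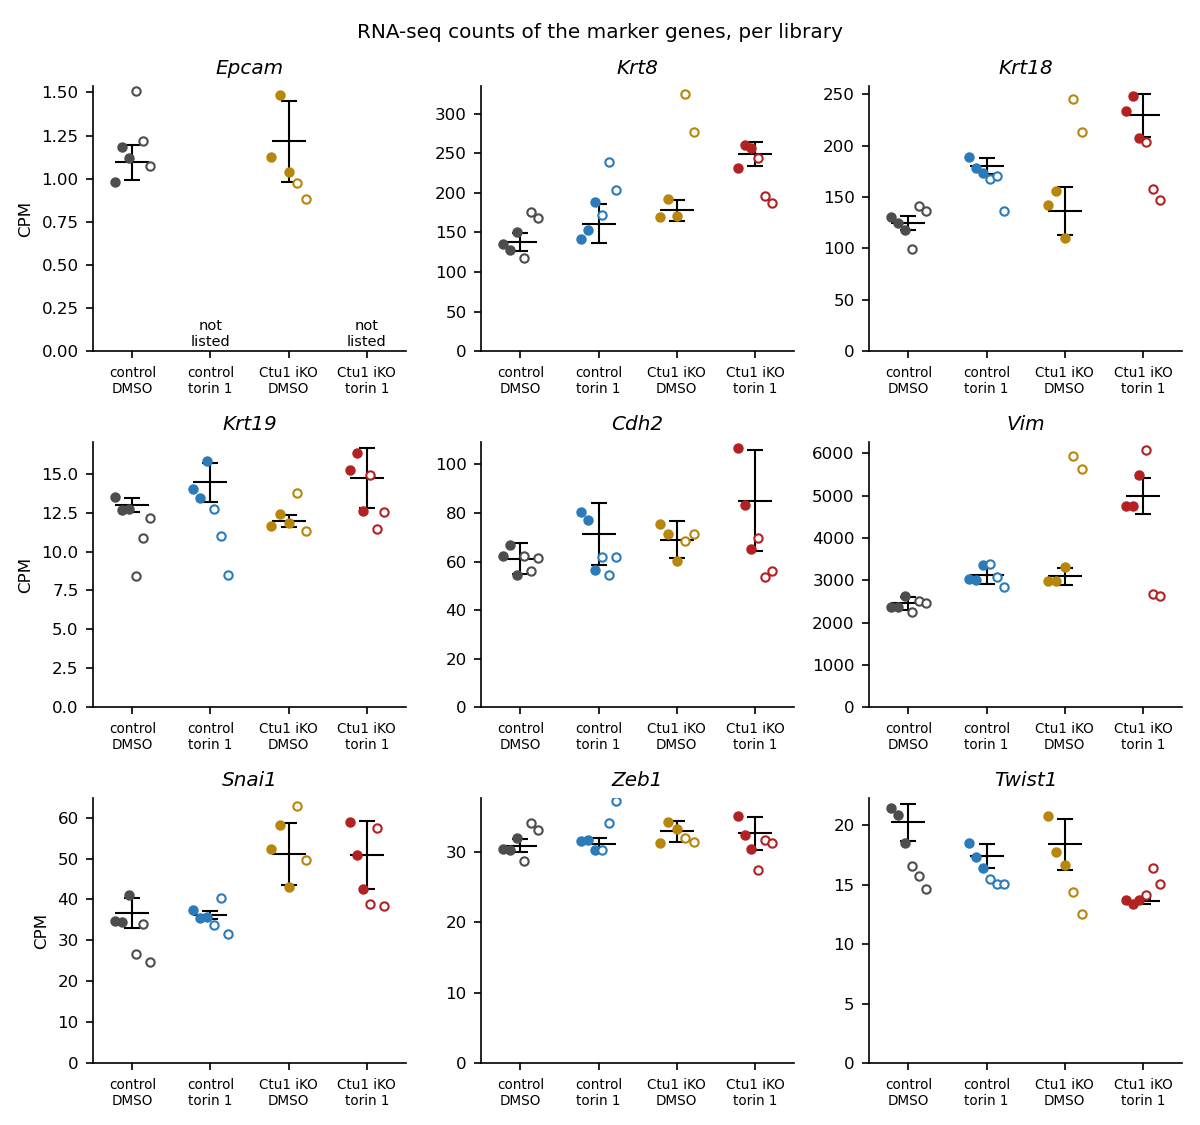
RNA CPM of each listed marker by group, 1 point per library. Filled points are replicates 1 to 3, which the tests used and whose mean and SD are drawn, and open points are the later replicates. The open Vim points of Ctu1 iKO with DMSO (5940 and 5640 CPM) and the 2 lowest of Ctu1 iKO with torin 1 (2684 and 2620 CPM) lie apart from the filled points of their groups.

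Footprints relative to RNA, a measure of translational efficiency, fell with torin 1 for Vim and Krt18 in both genotypes. For Vim, the log2 of footprint CPM over RNA CPM was 0.65, 0.81 and 0.38 in the 3 control cultures with DMSO and -0.40, 0.011 and -0.26 with torin 1, and 0.55, 0.66 and 0.14 against -0.95, -0.88 and -1.32 in Ctu1 iKO cultures. The change was -0.95 ± 0.18 (SE, edgeR adjusted p = 0.0192) in control and -1.67 ± 0.17 (SE, edgeR adjusted p = 6.59e-05) in Ctu1 iKO. For Krt18 the values were 0.071, 0.18 and 0.043 and then -0.83, -0.46 and -0.53 in control, and 0.079, -0.012 and -0.068 and then -1.24, -1.14 and -1.08 in Ctu1 iKO cultures. Its changes were -0.82 ± 0.15 (SE, edgeR adjusted p = 0.0128) and -1.32 ± 0.24 (SE, edgeR adjusted p = 0.0103). No torin 1 culture overlapped the DMSO cultures of its genotype for Vim and Krt18. The same held for Krt8 in both genotypes and for Krt19 in Ctu1 iKO.

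Keratin 8 passed in Ctu1 iKO only by a narrow margin, with 0.19, 0.17 and 0.12 in DMSO and -0.56, -0.43 and -0.33 in torin 1 cultures and a change of -0.75 ± 0.17 (SE, edgeR adjusted p = 0.0499), and in control its change was -0.48 ± 0.24 (SE, edgeR adjusted p = 0.817). That call was lost whichever culture was left out (edgeR adjusted p from 0.0799 to 0.302) and under library totals alone (0.178). In control the calls were lost in 3 of 6 fits without 1 culture for Vim (without DMSO replicate 1 or 2 or torin 1 replicate 3) and 4 of 6 for Krt18 (without DMSO replicate 1 or 2 or torin 1 replicate 1 or 3). In Ctu1 iKO they were lost in 3 of 6 for Krt18 (without DMSO replicate 1 or torin 1 replicate 1 or 2) and in none for Vim. Of the 8 markers, 2 were called lower in control, where 1.18% of all genes were called, 0.052% higher and 1.12% lower. In Ctu1 iKO 3 were called lower, where 1.77% of all genes were called, 0.0936% higher and 1.67% lower. With all replicates none of the 3 was called in Ctu1 iKO, and Vim was then -1.02 (edgeR adjusted p = 0.115). Krt19, Cdh2 and the 3 factor genes were not called in either genotype. Among these, Krt19 in Ctu1 iKO had the lowest edgeR adjusted p (-0.72 ± 0.30 SE, adjusted p = 0.494).

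**Figure D4:**
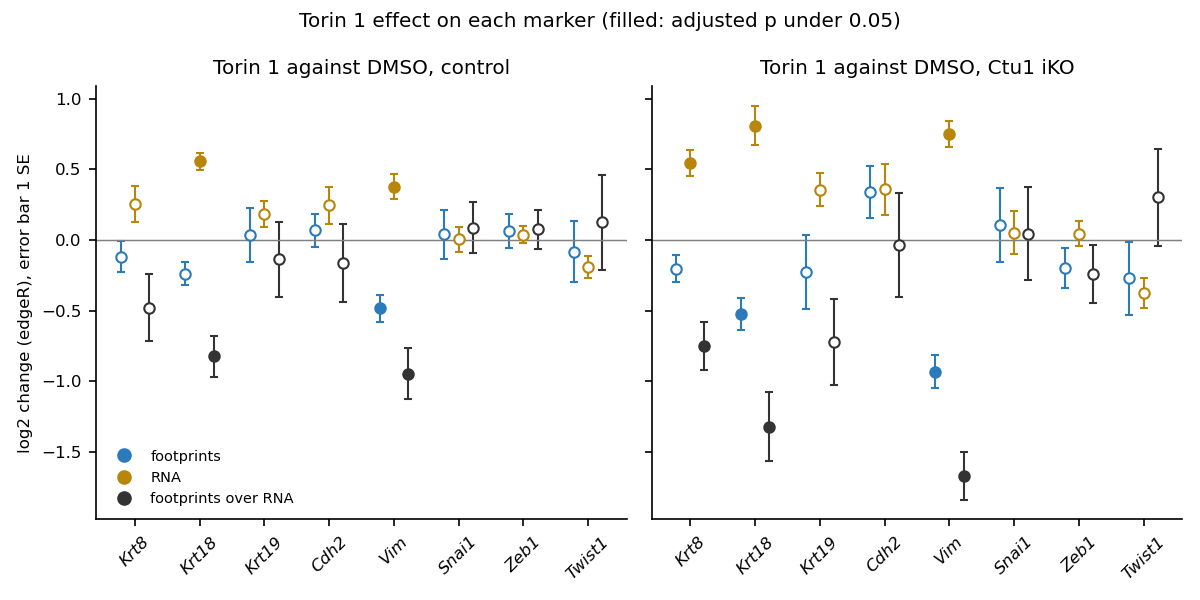
Log2 change with torin 1 against DMSO in control (left) and Ctu1 iKO (right) for footprints, RNA and footprints over RNA, with 1 SE as error bars. Filled points have an edgeR adjusted p under 0.05. Vim, Krt18 and Krt8 have RNA values above 0 and footprint values below 0 in both panels.

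Keratin 8 footprints were higher in Ctu1 iKO than in control cultures with DMSO. Krt8 lay at 135 to 170.4 CPM (median 162) in control and at 194, 216, 186, 210.4 and 220.1 CPM in Ctu1 iKO cultures with DMSO, with no overlap, and the log2 change was 0.36 ± 0.083 (SE, edgeR adjusted p = 0.0352). It was the only one of 9 markers called, and 2.66% of all genes were called, 1.63% higher and 1.04% lower. The call stayed under the threshold only without Ctu1 iKO DMSO replicate 1 or 3. It was lost in the other 9 of 11 fits that left out 1 library (edgeR adjusted p up to 0.0941, log2 change 0.33 to 0.39) in the fit of all 4 groups (0.0678) and with replicates 1 to 3 only (0.427). Under torin 1, Krt8 had 113 to 177 CPM (median 159) in control and 158 to 214 CPM (median 194) in Ctu1 iKO cultures, and these overlapped. The log2 change was 0.28 ± 0.12 (SE, edgeR adjusted p = 0.2297), and 0.29 (edgeR adjusted p = 0.02198) with the replicate block.

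Keratin 18 had a log2 change of 0.0053 ± 0.10 (SE, edgeR adjusted p = 0.988) with Ctu1 loss under DMSO and -0.28 ± 0.088 (SE, edgeR adjusted p = 0.0955) under torin 1. Vim footprints were 0.10 ± 0.10 (SE, edgeR adjusted p = 0.665) and -0.35 ± 0.11 (SE, edgeR adjusted p = 0.0812) in the same comparisons. Without a block edgeR called none of 8 markers between the torin 1 groups, where 4.83% of all genes were called, 2.23% higher and 2.6% lower. DESeq2 called Vim and Krt18 lower (adjusted p = 0.0302 and 0.0288), and edgeR with all 4 groups in 1 fit called Vim lower (adjusted p = 0.0362). Same-numbered libraries deviated together here too, and the replicate block called Vim (-0.35, edgeR adjusted p = 0.0204) and Krt18 (-0.28, edgeR adjusted p = 0.0181) lower and Krt8 and Snai1 (0.50, edgeR adjusted p = 0.00489) higher, among 1425 genes in place of 479.

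Snail, a repressor of epithelial genes, was called with Ctu1 loss in some tests and not in others. Snai1 footprints were 22.6 to 36.7 CPM (median 31.3) in control and 55.3, 62.2, 40.4, 29.5 and 27.9 CPM in Ctu1 iKO cultures with DMSO, and 23.2 to 44.7 CPM (median 31.8) and 35.7 to 73.2 CPM (median 43.3) with torin 1. The groups overlapped, and the log2 values were 0.46 ± 0.22 (SE, edgeR adjusted p = 0.291) and 0.53 ± 0.22 (SE, edgeR adjusted p = 0.201). In RNA, Snai1 had 34.7, 34.4 and 40.97 CPM in control and 52.4, 58.1 and 42.9 in Ctu1 iKO cultures with DMSO, and 37.5, 35.6 and 35.6 and 59.03, 50.97 and 42.5 with torin 1, with no overlap in either pair. The changes were 0.49 ± 0.13 (SE, edgeR adjusted p = 0.0643) and 0.54 ± 0.12 (SE, edgeR adjusted p = 0.0835), and 0.49 (edgeR adjusted p = 0.0177) and 0.53 (edgeR adjusted p = 0.00266) with the replicate block. DESeq2 called both (adjusted p = 0.00657 and 0.00403), and edgeR without a block called each when replicate 3 of its Ctu1 iKO group was left out (edgeR adjusted p = 0.0309 and 0.0284).

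Epcam had few counts. Its footprints were 1.66 to 2.89 CPM (median 2.24) in control and 1.66, 0.153, 0.2599, 1.16 and 1.61 CPM in Ctu1 iKO cultures with DMSO, which rest on 30 to 143 and on 2 to 40 counts. The groups met at 1.66 CPM, and the log2 change was -1.26 ± 0.49 (SE, edgeR adjusted p = 0.186). The gene was listed through a control library, so a lower value in the other group was favoured by the listing. Its RNA did not differ detectably between these groups (0.17 ± 0.21 SE, edgeR adjusted p = 0.667). The remaining markers were not called with Ctu1 loss in footprints: Krt19 was 0.034 ± 0.24 (SE, edgeR adjusted p = 0.964), Cdh2 -0.082 ± 0.13 (SE, edgeR adjusted p = 0.7901), Zeb1 0.23 ± 0.11 (SE, edgeR adjusted p = 0.3004) and Twist1 0.09 ± 0.22 (SE, edgeR adjusted p = 0.875) with DMSO.

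Vimentin RNA was higher in replicates 1 to 3 of Ctu1 iKO than of control cultures when both had torin 1. The log2 change was 0.35 ± 0.085 (SE, edgeR adjusted p = 0.0571) with DMSO and 0.72 ± 0.10 (SE, edgeR adjusted p = 0.0318) with torin 1, where Vim was the only 1 of 8 markers called and 1.31% of all genes were called, 0.953% higher and 0.352% lower. Every Ctu1 iKO library was above every control library in both pairs. The call with torin 1 was kept only without Ctu1 iKO torin 1 replicate 3, and lost in 5 of 6 fits that left out 1 library (edgeR adjusted p up to 0.213). With all replicates no gene was called in this comparison, and Vim was 0.54 (edgeR adjusted p = 0.9498). With DMSO edgeR called none of 9 markers in replicates 1 to 3, where 5.12% of all genes were called, 3.32% higher and 1.8% lower. DESeq2 called Vim, Krt8 and Snai1 higher (adjusted p = 0.00292, 0.00425 and 0.00657), among 1530 of 10119 genes called. With all replicates, edgeR called these, Krt18 and Cdh2 higher, among 2677 of 10128 genes called. Krt8 RNA was 0.39 ± 0.092 (SE, edgeR adjusted p = 0.0559) with DMSO and 0.68 ± 0.13 (SE, edgeR adjusted p = 0.0607) with torin 1, again without overlap. The replicate block, under which 2831 of 10119 genes were called with DMSO and 3162 of 9650 with torin 1 (518 and 126 without it), called Krt8, Vim and Snai1 higher in both, with Cdh2 higher in both (0.19, edgeR adjusted p = 0.0358 and 0.29, edgeR adjusted p = 0.01597), and with torin 1 also Krt18 higher (0.40, edgeR adjusted p = 0.00221) and Twist1 lower (-0.31, edgeR adjusted p = 0.0116). In footprints relative to RNA edgeR called no marker with Ctu1 loss, where 0.0% of 10117 genes were called with DMSO (none by edgeR, 380 at an unadjusted p under 0.05, 21 by DESeq2) and 0.114% with torin 1, all of them lower. With torin 1, Vim was -0.92 ± 0.19 (SE, edgeR adjusted p = 0.121) and Krt18 -0.63 ± 0.18 (SE, edgeR adjusted p = 0.392), each without overlap, and DESeq2 called both (-0.92, adjusted p = 0.00122, and -0.63, adjusted p = 0.0318), among 102 genes.

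The ratio of keratin 18 to keratin 8 footprints within a library, which does not depend on the scaling between libraries, was lower in Ctu1 iKO than in control cultures. The log2 ratio was -0.43 to -0.022 (median -0.27) in control and -0.82 to -0.36 (median -0.70) in Ctu1 iKO libraries with DMSO, and -0.56 to -0.059 (median -0.47) and -1.18 to -0.68 (median -0.94) with torin 1. The 2 torin 1 groups did not overlap. The mean difference was -0.36 with DMSO (two-sided exact permutation p = 0.01299, adjusted over 12 ratio tests 0.03896) and -0.56 with torin 1 (exact permutation p = 0.00216, adjusted 0.01299, lower in 6 of 6 same-numbered pairs), the second p being the smallest that 6 against 6 allow. With DMSO the adjusted value passed in only 3 of 11 tests that left out 1 library (control DMSO replicate 3 or 5, or Ctu1 iKO DMSO replicate 1; it rose to 0.0714 in the others), and with torin 1 in 12 of 12.

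Vimentin relative to keratin 8 fell with torin 1 in Ctu1 iKO cultures. The log2 ratio of Vim to Krt8 footprints was 4.52 ± 0.19 (SD, n = 6) in control with DMSO, 4.17 ± 0.22 (SD, n = 6) in control with torin 1, 4.26 ± 0.23 (SD, n = 5) in Ctu1 iKO with DMSO and 3.53 ± 0.29 (SD, n = 6) in Ctu1 iKO with torin 1. Torin 1 changed it by -0.72 in Ctu1 iKO (two-sided exact permutation p = 0.00433, adjusted 0.0173, no overlap) and by -0.35 in control (exact permutation p = 0.0281, adjusted 0.0675, 6 of 6 pairs). Between the torin 1 groups it differed by -0.64 on the log2 scale in Ctu1 iKO (exact permutation p = 0.00216, adjusted 0.01299), with no overlap. The Krt19 to Krt8 ratio passed in none of the 4 comparisons, with differences from -0.52 to 0.19 and exact permutation p adjusted from 0.136 to 0.931.

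In RNA the ratios are given as values, since an exact permutation test of 3 libraries against 3 cannot go below 0.1. Krt18 to Krt8 was -0.14 ± 0.18 (SD, n = 3) in control and -0.39 ± 0.21 (SD, n = 3) in Ctu1 iKO with DMSO, and 0.17 ± 0.27 (SD, n = 3) and -0.12 ± 0.17 (SD, n = 3) with torin 1. Vim to Krt8 was 4.16 ± 0.055 (SD, n = 3) and 4.12 ± 0.16 (SD, n = 3) with DMSO, and 4.29 ± 0.13 (SD, n = 3) and 4.32 ± 0.12 (SD, n = 3) with torin 1. Within a treatment the Krt18 to Krt8 values of the 2 genotypes overlapped, with a lower mean in Ctu1 iKO, and the mean Vim to Krt8 values of the 2 genotypes differed by less than 1 SD.

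**Figure D5:**
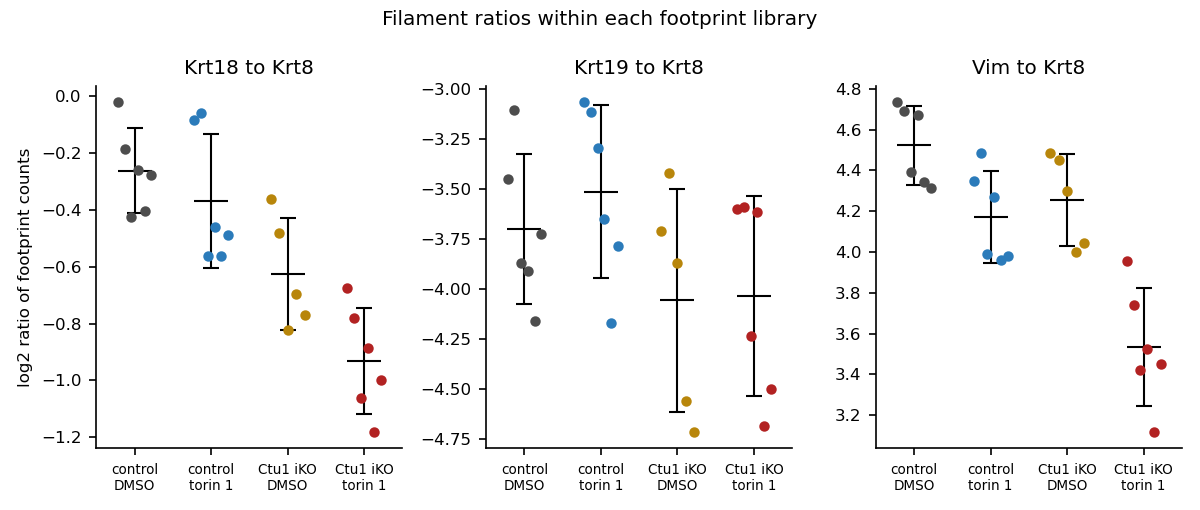
Log2 ratio of the footprint counts of 2 filament genes within each library (pseudocount 1), by group, with the mean and SD as bars. The axes do not start at 0. The Krt18 to Krt8 and Vim to Krt8 ratios of the 6 Ctu1 iKO libraries with torin 1 lie below all 6 control libraries with torin 1.

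Whether torin 1 acted more on a marker in Ctu1 iKO than in control cultures was tested as an interaction. No marker passed in footprints, where 0.639% of all genes did, all of them lower, and 0.0% of 9616 genes passed in RNA by edgeR (140 at an unadjusted p under 0.05, 3 by DESeq2). Vim had a footprint interaction of -0.44 ± 0.15 (SE, edgeR adjusted p = 0.435), with an unadjusted p of 0.00671, and an RNA interaction of 0.38 ± 0.13 (SE, edgeR adjusted p = 0.9998), with an unadjusted p of 0.0116, so its larger changes in Ctu1 iKO cultures were not shown to differ from those in control. The other footprint interactions ran from -0.28 (Krt18) to 0.28 (Cdh2).

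Footprint libraries of replicates 1 and 2 differed from the later ones in some markers. Twist1 had 18.7 to 23.6 CPM in the 8 libraries of replicates 1 and 2 and 9.77 to 15.6 in the 15 others, with no overlap over all 4 groups, and Snai1 had 36.3 to 73.2 against 22.6 to 44.98. Each group holds both kinds. Within replicates 1 and 2, the log2 ratio of mean Vim CPM with torin 1 to that with DMSO was -0.57 in control and -0.85 in Ctu1 iKO, and within the later replicates -0.30 and -0.79. For Krt18 in Ctu1 iKO the values were -0.53 and -0.33. For Krt8 with Ctu1 loss under DMSO they were 0.45 and 0.37. With torin 1 in control, Krt8 gave -0.28 in the first set and 0.074 in the second. Vim with Ctu1 loss under torin 1 gave -0.078 and -0.43, so that difference lay mainly in the later replicates.

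Further genes of the 2 states were counted from lists of 70 other epithelial and 62 other mesenchymal genes. Where torin 1 groups entered, 23 of the first and 50 or 51 of the second could be tested, and between the DMSO groups 25 and 51. With torin 1, footprints of 2 epithelial genes rose in control and of 4 in Ctu1 iKO, and none fell (8.696% of the list beside 7.24% of all genes in control and 17.4% of the list beside 8.0% of all genes in Ctu1 iKO), with list medians of 0.11 and 0.17 beside 0.015 and 0.018 over all genes. They were led by the transcription factor genes Klf4 (1.52 ± 0.17 SE, edgeR adjusted p = 2.54e-05 in control, 1.58 ± 0.19 SE, edgeR adjusted p = 6.55e-05 in Ctu1 iKO) and Klf5 (0.51 ± 0.11 SE, edgeR adjusted p = 0.00792 and 0.52 ± 0.11 SE, edgeR adjusted p = 0.0119), with Pard3, a polarity protein gene, in Ctu1 iKO (0.45 ± 0.11 SE, edgeR adjusted p = 0.02496). In RNA 3 epithelial genes rose in control and 2 in Ctu1 iKO, near the share over all genes (13.04% of the list beside 13.1% of all genes and 8.696% of the list beside 8.25% of all genes). Klf4 rose in both (1.29 ± 0.077 SE, edgeR adjusted p = 4.01e-04 and 1.24 ± 0.17 SE, edgeR adjusted p = 0.00955), and Klf5 in control (0.53 ± 0.14 SE, edgeR adjusted p = 0.0477).

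Of the mesenchymal genes, 2 rose and 2 fell in footprints with torin 1 in each genotype, close to the share over all genes (8.0% of the list beside 7.24% of all genes in control and 8.0% of the list beside 8.0% of all genes in Ctu1 iKO), with list medians of 0.11 and 0.19. Those that rose were Sox9 (0.83 ± 0.14 SE, edgeR adjusted p = 0.00135 in control, 1.01 ± 0.19 SE, edgeR adjusted p = 0.00314 in Ctu1 iKO), a transcription factor gene that ducts also express, and Prrx1 (0.34 ± 0.081 SE, edgeR adjusted p = 0.01701 and 0.44 ± 0.12 SE, edgeR adjusted p = 0.0328). Those that fell included the matricellular gene Ccn1 (-0.80 ± 0.20 SE, edgeR adjusted p = 0.0239) in control, and were Cnn2 (-0.51 ± 0.13 SE, edgeR adjusted p = 0.0304) and Lgals1 (-0.36 ± 0.08 SE, edgeR adjusted p = 0.0134), which encode a calponin and galectin-1, in Ctu1 iKO. In RNA 4 rose and 1 fell in control, and 1 rose and 1 fell in Ctu1 iKO, below the share over all genes (10.0% of the list beside 13.1% of all genes and 4.0% of the list beside 8.25% of all genes). Thbs2 (0.70 ± 0.14 SE, edgeR adjusted p = 0.0189), Sox9 (0.69 ± 0.11 SE, edgeR adjusted p = 0.00869) and Foxc2 (0.46 ± 0.11 SE, edgeR adjusted p = 0.0346) led the rise in control, and Ccn1 fell in both (-0.82 ± 0.11 SE, edgeR adjusted p = 0.00471 and -0.96 ± 0.17 SE, edgeR adjusted p = 0.0167).

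With Ctu1 loss and DMSO, RNA of 9 of 51 mesenchymal genes rose and none fell (17.6%, beside 5.12% of all genes), with a list median of 0.38. Without control DMSO replicate 2, no gene of the table was called in this comparison, these 9 included, and between 34 and 131 genes were called without control replicate 1 or 3 or Ctu1 iKO replicate 1 or 2, in place of 518. The largest changes were those of Acta2, smooth muscle actin (2.21 ± 0.30 SE, edgeR adjusted p = 0.0165), the proteoglycan gene Dcn (1.36 ± 0.21 SE, edgeR adjusted p = 0.0199) and Thbs2, thrombospondin 2 (1.21 ± 0.12 SE, edgeR adjusted p = 0.00789). In footprints 2 of 51 rose (3.92% of the list beside 2.66% of all genes), Thbs2 (0.96 ± 0.20 SE, edgeR adjusted p = 0.0223) and Cnn2 (0.62 ± 0.13 SE, edgeR adjusted p = 0.0201), and the list median was 0.25. With torin 1 in both groups 3 rose in footprints (5.88% of the list beside 4.83% of all genes), Thbs2 (1.09 ± 0.21 SE, edgeR adjusted p = 0.00681), the fibrillin gene Fbn1 (0.72 ± 0.16 SE, edgeR adjusted p = 0.0161) and Sox9 (0.61 ± 0.14 SE, edgeR adjusted p = 0.0209). In RNA none of the list was called, beside 1.31% of all genes, and its median was 0.45 beside 0.0052 over all genes. Of the epithelial list, Ctnnd1 (p120 catenin) was called in footprints with DMSO (0.32 ± 0.066 SE, edgeR adjusted p = 0.0201) and Klf4 with torin 1 (0.74 ± 0.16 SE, edgeR adjusted p = 0.0153). In RNA Klf4 rose with DMSO (0.72 ± 0.16 SE, edgeR adjusted p = 0.0455) and with torin 1 (0.67 ± 0.10 SE, edgeR adjusted p = 0.0419), and Pkp3, a desmosomal plakophilin gene, fell with DMSO (-0.77 ± 0.11 SE, edgeR adjusted p = 0.0174). No gene of either list was called in footprints relative to RNA in any of the 4 comparisons. Of all genes, 0.0% were called there with Ctu1 loss under DMSO and 0.114% under torin 1. With torin 1 the shares were 1.18% in control and 1.77% in Ctu1 iKO. Dcn is also among the fibroblast markers above.

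Across the 23 footprint libraries, the genes whose log2 CPM followed Vim most closely among 9856 others were Rpl6, Rpl8 and Gm2174 (Pearson r = 0.95, 0.95 and 0.95), of which the first 2 encode proteins of the large ribosomal subunit. Krt18 stood at place 86 of that order (r = 0.88), and no other marker exceeded 0.38 (Twist1). Krt8 was followed most closely by Eif3c, Ddx46 and Asns (r = 0.94, 0.90 and 0.89), and its r with its partner Krt18 was 0.021. The libraries share treatments, genotypes and replicate sets, so these values describe the pattern only.

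The coding sequences differ in how often they use the codons that Ctu1-modified tRNAs read. VAA codons make up 2.23% of the Krt19, 3.06% of the Krt8, 5.67% of the Krt18 and 6.01% of the Vim codons, and 0.971% in Twist1, 2.27% in Snai1, 6.84% in Cdh2, 7.62% in Epcam and 9.67% in Zeb1. The median over 10167 genes of the tables is 6.06% (quartiles 3.96% and 8.64%). Krt8, Krt19, Snai1 and Twist1 thus lie below the lower quartile, Zeb1 lies above the upper, and Krt18, Vim, Cdh2 and Epcam lie between. In build GRCm38 the annotation places Krt8 at chr15:101996698-102004482 on the minus strand and Krt18 at chr15:102028180-102032027 on the plus strand, next to each other on the same chromosome, while Krt19 is at chr11:100140810-100148665 and Vim at chr2:13573927-13582826.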

How the data were processed

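The 46 libraries hold footprints and poly(A) RNA, 1 of each from 23 cultures. Values deposited by the authors are raw counts per gene symbol, with no normalization. Per the labels, reads were trimmed with cutadapt 3.4 and aligned to mm10, and footprints were also processed with UMI-tools 1.1.1 (whether duplicates were collapsed is not stated). Footprints were freed of rRNA reads and counted with STAR 2.5.3a, and the methods name a human build for them, a conflict not settled here. All RNA counts are even.

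Counts were tested with the quasi-likelihood test of edgeR 4.0.16 in R 4.3.3 (TMM scaling, mean count of at least 10 in the libraries fitted, Benjamini-Hochberg adjustment over all genes, called at an adjusted p under 0.05). Footprint tests used all replicates of the 2 groups compared and RNA tests replicates 1 to 3. Footprints relative to RNA were tested as an assay by group interaction over replicates 1 to 3, without a term for the culture. Footprint ratios used counts with a pseudocount of 1 and two-sided exact permutation tests (scipy 1.17.1), adjusted over 12. DESeq2 1.42.0, library totals, other filters, a replicate block and left-out libraries were alternatives. Scripts were tested on simulated data. Coding sequences and positions are from GENCODE M21, promoters from RefSeq (GRCm38.p6). The members and lists were chosen with earlier results of these data known. List genes were named per direction as the 3 that changed most among those called with a mean count of at least 100, and likeness as the 3 highest Pearson r. Some genes and a sequence that these rules cover are not reported here.

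Replicate numbers were checked for pairing by the correlation over genes of deviations from the group means. It was 0.44 to 0.64 for footprints with torin 1 in control, 0.32 to 0.54 for footprints with Ctu1 loss under torin 1, and 0.48 to 0.84 in the 4 RNA comparisons, all over 0.1, so blocked values are given there. Footprints and RNA of 1 culture pair by design. The main test of footprints relative to RNA left this pairing out, and its replicate block used it.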

Additional observations from a re-analysis of the deposited data

Results flagged for a closer look

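In Ctu1 iKO cultures with torin 1, the highest Krt18 footprint level, 112.6 CPM in replicate 2, stood apart from the other 5 libraries. Its gap to the next value was 0.77 of the whole range of the group, above Dixon's 95% critical value of 0.625 for 6 samples. It was 1 of 46 groups tested that stood out in this way, and chance gives about 1 in 20. The fall of Krt18 footprints with torin 1 in Ctu1 iKO was called without this library as well.

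The RNA libraries of replicates 4 and 5 labelled Ctu1 iKO with DMSO, which entered no main test, were above every control library with DMSO for 5 of the 9 markers. The lower of the 2 had 277 CPM for Krt8, 214 CPM for Krt18, 68.4 CPM for Cdh2, 5639.7 CPM for Vim and 49.5 CPM for Snai1. Both were below every control library with DMSO for 2 markers, Twist1 (14.4 and 12.5 CPM) and Epcam (0.974 and 0.881 CPM), and not both past the control range for Krt19 and Zeb1. Of 10397 genes, 19.2% were above every control library in both and 34.3% below. The footprints labelled as the same cultures had 210.4 and 220.1 CPM for Krt8, where the other 3 Ctu1 iKO libraries with DMSO had 186 to 216, and 3362 and 3629 CPM for Vim, where the others had 3664 to 4731. The cause was not tested.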

How the results depend on the processing

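All numbers in this paragraph count genes called, with the markers among them after them where those moved too. With DESeq2, footprints gave 700 with Ctu1 loss and DMSO, 842 (2 markers) with Ctu1 loss under torin 1 and 109 for the interaction, with 2 markers for torin 1 in control. RNA gave 1530 (3) with Ctu1 loss and DMSO, 1092 (5) under torin 1, 1963 for torin 1 in control, 1609 (5) for torin 1 in Ctu1 iKO and 3 for the interaction. Footprints relative to RNA gave 21 and 102 (2) for Ctu1 loss with DMSO and under torin 1, and 227 and 316 for torin 1 in control and Ctu1 iKO. With all 4 groups in 1 fit, footprints gave 842 (1) for Ctu1 loss under torin 1, 1187 for torin 1 in Ctu1 iKO and 0 markers for Ctu1 loss with DMSO, and RNA gave 970 (5) for Ctu1 loss under torin 1 and 1717 (5) for torin 1 in Ctu1 iKO. With all replicates, RNA gave 2677 (5) for Ctu1 loss with DMSO, and 0 genes and 0 markers for Ctu1 loss under torin 1 and torin 1 in Ctu1 iKO, and footprints relative to RNA gave 5 and 113 for Ctu1 loss with DMSO and under torin 1, and 257 with 0 markers for torin 1 in Ctu1 iKO. With replicates 1 to 3 only, footprints gave 2 (0) and 1 for Ctu1 loss with DMSO and under torin 1, and 138 (0) and 178 (1) for torin 1 in control and Ctu1 iKO. With a term for replicates 1 and 2, they gave 737 and 914 (3), and 1218 (2) and 1368. The causes were not tested.

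With the replicate block, footprints gave 1425 (4 markers) for Ctu1 loss under torin 1, 2019 (2) for torin 1 in control and 112 for the interaction. RNA gave 2831 (4) and 3162 (6) for Ctu1 loss with DMSO and under torin 1, and 4206 (5) and 3378 (6) for torin 1 in control and Ctu1 iKO, and footprints relative to RNA gave 1 for Ctu1 loss with DMSO. The block changed no other count of markers. Of the 12 ratio tests, 4 passed in the main test, 0 with the block (two-sided exact sign-flip test) and 0 with replicates 1 to 3 only. Neither alternative can reach the threshold after adjustment with so few pairs or libraries, so these counts say nothing about stability. For footprints with Ctu1 loss under DMSO and with torin 1 in Ctu1 iKO the numbers did not meet the check of pairing.

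Leaving out 1 library in turn (both libraries of 1 culture for footprints relative to RNA), the counts ranged in RNA from 0 to 511 (0 to 1 markers) for Ctu1 loss with DMSO, 1 to 406 (0 to 3) for Ctu1 loss under torin 1, 412 to 1233 (1 to 2) for torin 1 in control and 123 to 1123 (1 to 4) for torin 1 in Ctu1 iKO. In footprints they were 144 to 285 (0 to 1) and 301 to 572 (0 to 1) for Ctu1 loss with DMSO and under torin 1. In footprints relative to RNA they were 0 to 8 for Ctu1 loss under torin 1, 63 to 104 (0 to 2) for torin 1 in control and 105 to 163 (1 to 2) for torin 1 in Ctu1 iKO. The Krt19 to Krt8 footprint ratio, not called, turned from 0.02 to -0.14 with torin 1 in Ctu1 iKO in replicates 1 to 3 and ran from -0.15 to 0.18 with 1 library left out.

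Library totals in place of TMM moved the split of higher to lower calls in footprints from 169 and 108 to 218 and 80 for Ctu1 loss with DMSO, from 221 and 258 to 281 and 202 under torin 1, from 287 and 427 to 602 and 327 for torin 1 in control and from 343 and 445 to 580 and 317 in Ctu1 iKO. In RNA it moved from 547 and 712 to 445 and 891 for torin 1 in control, from 359 and 435 to 289 and 650 in Ctu1 iKO and from 92 and 34 to 57 and 41 for Ctu1 loss under torin 1, with Twist1 then called lower with torin 1 in Ctu1 iKO (-0.44, edgeR adjusted p = 0.0465). Footprints relative to RNA gave 1 and 3 genes for Ctu1 loss with DMSO and under torin 1. The median of all genes in footprints relative to RNA moved from 0.034 to 0.16 with torin 1 in control and from 0.032 to 0.20 in Ctu1 iKO. Vim and Krt18 kept their direction and their calls under both scalings. Depth limits Epcam most, with 2 to 40 footprints in Ctu1 iKO libraries.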
